A study of Mus musculus with 103 samples.

Results

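Hox genes encode homeodomain transcription factors and lie in 4 clusters in the mouse genome, Hoxa on chromosome 6, Hoxb on chromosome 11, Hoxc on chromosome 15 and Hoxd on chromosome 2. All genes whose platform symbol names a Hoxa, Hoxb, Hoxc or Hoxd gene and whose probe set carries that symbol alone were taken, which gave 37 of the 19938 genes tested. They are 10 Hoxa, 9 Hoxb, 9 Hoxc and 9 Hoxd genes, each with 1 probe set. The gene table lists 39 Hox protein-coding genes, and the other 2 are not analysed here. The question was where among first arch, caudal and otic tissue Hox transcripts were raised or stayed at the baseline.

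The samples come from an atlas of the developing face of CD1 outbred mice, with the morning of the vaginal plug counted as E0.5. Regions were captured by laser from frozen sections, their RNA was amplified, and each of the 103 samples was hybridised to 1 Affymetrix whole-transcript array. At E8.5 there were 18 libraries in 4 groups: mesenchyme (5), caudal neural epithelium (4), floor plate neural epithelium (4) and non-floor plate neural epithelium (5). At E9.5 there were 34 in 6 groups: otic vesicle (6), mandibular arch (5), maxillary arch (5), cranial mesenchyme (6), epidermal ectoderm (7) and neural epithelium (5). At E10.5 there were 50 in 12 groups. These were mandibular arch (4), maxillary arch (5), mandibular arch ectoderm (4), maxillary arch ectoderm (4), lateral nasal eminence (4), medial nasal prominence (4), olfactory pit (4), Rathke's pouch (5), midline neural epithelium (4), neural epithelium under the lateral (4) and the medial (4) prominences, and control neural epithelium that flanks no facial eminence (4). No animal carried an engineered allele or received a treatment. No group is labelled hindbrain, second arch or trunk. The labels do not tie samples to embryos, so libraries of a group may share one, and p-values measure only the spread between these samples.

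Hox genes are known for being activated in the order in which they lie along each cluster, the low-numbered paralogs in the hindbrain and the high-numbered ones in the posterior trunk and limbs. The neural crest that fills the first pharyngeal arch, which forms the jaws, is known to lack Hox expression, while crest of the second arch expresses Hoxa2, the gene that sets its skeletal identity. The otic vesicle forms beside the hindbrain, and Hox proteins bind DNA with the TALE homeodomain cofactors of the Meis and Pbx families.

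Each value is the log2 of the authors' ratio to a baseline. The baseline is the median of each probe set over 21 of the samples, which lie in 19 of the 22 groups. A value of 1 is therefore 2-fold above that baseline. The values compare libraries for 1 gene and not levels between genes. A gene expressed equally everywhere would also sit near 0, so a value near 0 does not show that a gene is off. In captured tissue, fewer cells of an expressing type and less RNA per cell cannot be told apart. A gene was called in a comparison at a Benjamini-Hochberg adjusted p under 0.05 over all 19938 genes in a limma fit of all grouped libraries.

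Several libraries stood apart from their group or their label. Otic vesicle libraries 3 and 5 had mean otic marker values of 0.19 and -0.25, against 0.92 to 2.21 in the other 4, and mean forebrain and midbrain marker values of 0.73 and 1.53, against -0.48 to 0.04. The 4 E10.5 libraries labelled mandibular arch ectoderm had means of 1.61 to 2.33 for the 10 arch mesenchyme markers and of -0.43 to 0.09 for the 10 surface ectoderm markers. E10.5 maxillary arch libraries 1 to 4 had surface ectoderm means of 1.67, 1.29, 2.40 and 0.93, and library 5 had -0.57. Those of the maxillary arch ectoderm group ran from 0.84 to 1.55. The arch mesenchyme mean was 2.02 in E10.5 maxillary arch library 1 and 0.53 to 0.94 in libraries 2 to 5. The log2 values of 11 arrays had an SD over 0.85, against a median of 0.602 over all arrays. As a check of the label, in the caudal neural epithelium the neural markers averaged 0.57 to 0.83, and Cdx1, Cdx2 and Cdx4, which mark the posterior embryo, stayed between -0.22 and 0.13. The otic results are given with and without otic libraries 3 and 5, and the changes without the wide arrays are given where they move a result. Leaving out the mandibular arch ectoderm group, an alternative added after its markers were seen, kept every count of called Hox genes but that over the 22 groups, which was 27 in place of 28.

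Most Hox values lay close to the baseline in every tissue. Of the 3774 values of the 37 genes, 51 were over 2-fold above baseline (1.35%), against 5.85% of the values of all genes. None was under 0.5-fold of the baseline, against 4.57% of the values of all genes. The 51 values fell in 17 genes and 20 libraries. The SD of a Hox gene over the libraries had a median of 0.248, against 0.346 over all genes, and 33 of the 37 lay under the median of all genes. Hoxa3, a paralog of the third group with roles in pharyngeal organs, was the flattest, with an SD of 0.08 and a range from -0.23 to 0.25.

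**Figure D1:**
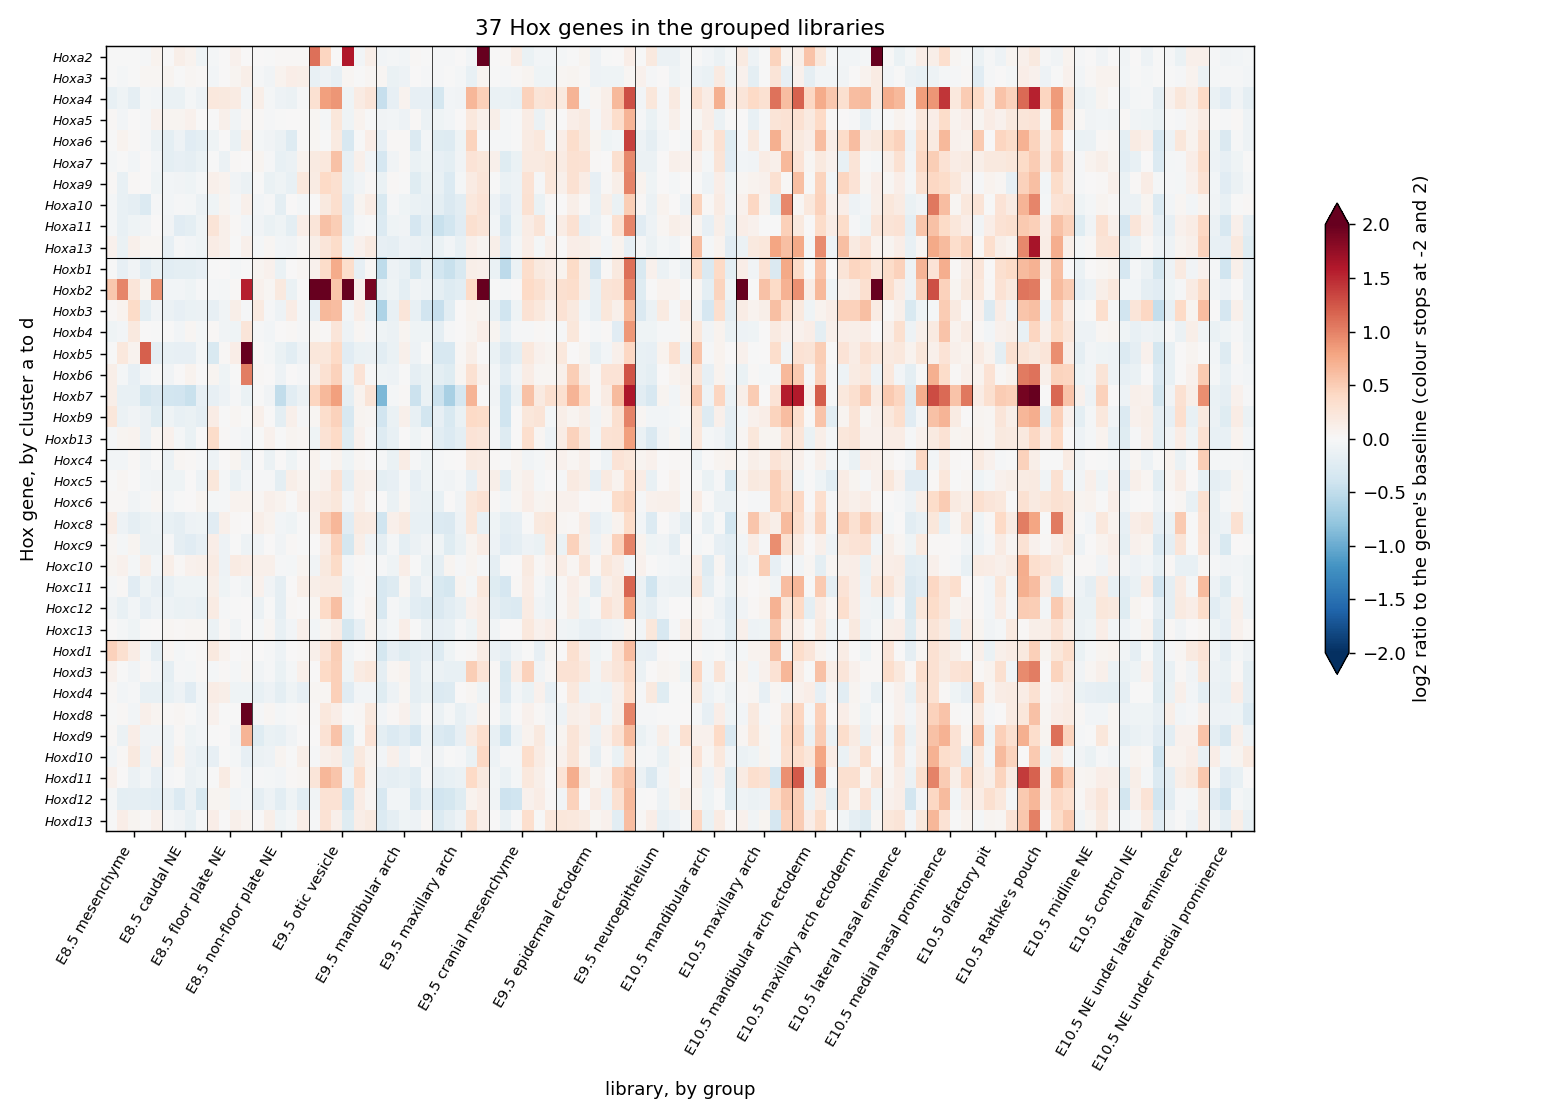
Log2 ratio of the 37 Hox genes (rows, by cluster) in the grouped libraries (columns, by stage and group). Most cells sit near 0, 51 are above 1, and the colour stops at -2 and 2. The 5 values over 8-fold are all Hoxa2 or Hoxb2.

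Hoxa2 and Hoxb2 behaved unlike the rest, and they were singled out after their values were seen. Between them they supplied 15 of the 51 values over 2-fold and all 5 values over 8-fold. Their SDs over the libraries were 0.79 and 0.80. When both are set aside, the 35 other genes gave no value over 2-fold in the otic vesicle, the caudal, non-floor plate or E9.5 neural epithelium, either E9.5 arch or the E10.5 mandibular arch. These 35 genes gave 2 in the E10.5 maxillary arch. They also gave none in E9.5 cranial mesenchyme, the lateral nasal eminence, the olfactory pit, maxillary arch ectoderm or any E10.5 neural epithelium group. The absence was thus not particular to arch, caudal and otic tissue.

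By cluster, the genes of Hoxc were the flattest, with a median SD of 0.148, against 0.284 for Hoxb, 0.253 for Hoxa and 0.230 for Hoxd. Hoxb supplied 28 of the values over 2-fold, Hoxa 13, Hoxd 7 and Hoxc 3. Of the 28, 11 were of Hoxb2 and 10 of Hoxb7, so the Hoxb count rests mostly on these genes. By position along the clusters, the 11 genes of paralog groups 1 to 4 supplied 23 such values, the 10 genes of groups 5 to 8 supplied 20 and the 16 genes of groups 9 to 13 supplied 8. Hoxa2 and Hoxb2 gave 15 of the 23, and Hoxb7 gave 10 of the 20. The groups' median SDs were 0.230, 0.268 and 0.233, so the spread did not follow the position in the cluster.

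Hoxa2 was near baseline in all but a few libraries. In the E9.5 maxillary arch it read -0.02, -0.02, 0.00 and -0.06 in libraries 1 to 4 and 5.30 in library 5, which is 39.4-fold over baseline. In the E10.5 maxillary arch ectoderm it read -0.06, -0.06 and -0.04 in libraries 1 to 3 and 5.74 in library 4, which is 53.3-fold. In both groups 1 library was far above the baseline and the others sat on it. In the E9.5 mandibular arch its values ran from -0.06 to 0.02, in the E10.5 mandibular arch from -0.12 to 0.00, and in the caudal neural epithelium from -0.09 to 0.11. Those 3 groups stayed at the baseline in every library. In the otic vesicle libraries 1 to 6 read 1.11, 0.43, 0.01, 1.60, -0.05 and 0.12, so that 2 of the 6 passed 2-fold.

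Hoxb2, the paralog of Hoxa2 in the Hoxb cluster and a hindbrain gene, was high in the same 2 libraries and in more of the otic ones. It read -0.18, -0.25, -0.21, 0.40 and 3.71 in the 5 E9.5 maxillary arch libraries, the last being 13.1-fold over baseline. It read 0.11, 0.15, 0.32 and 4.24 in the 4 E10.5 maxillary arch ectoderm libraries, the last being 18.9-fold. It read 3.47, 0.00, 0.58, 0.39 and 0.69 in the 5 E10.5 maxillary arch libraries, the first being 11.1-fold. Each of these 3 groups again had 1 library far above the others. In the otic vesicle it read 2.23, 1.99, 0.55, 2.58, 0.11 and 1.90 in libraries 1 to 6. The low otic values are those of libraries 3 and 5. In the E9.5 mandibular arch it ran from -0.19 to -0.07 and in the caudal neural epithelium from -0.09 to -0.02.

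**Figure D2:**
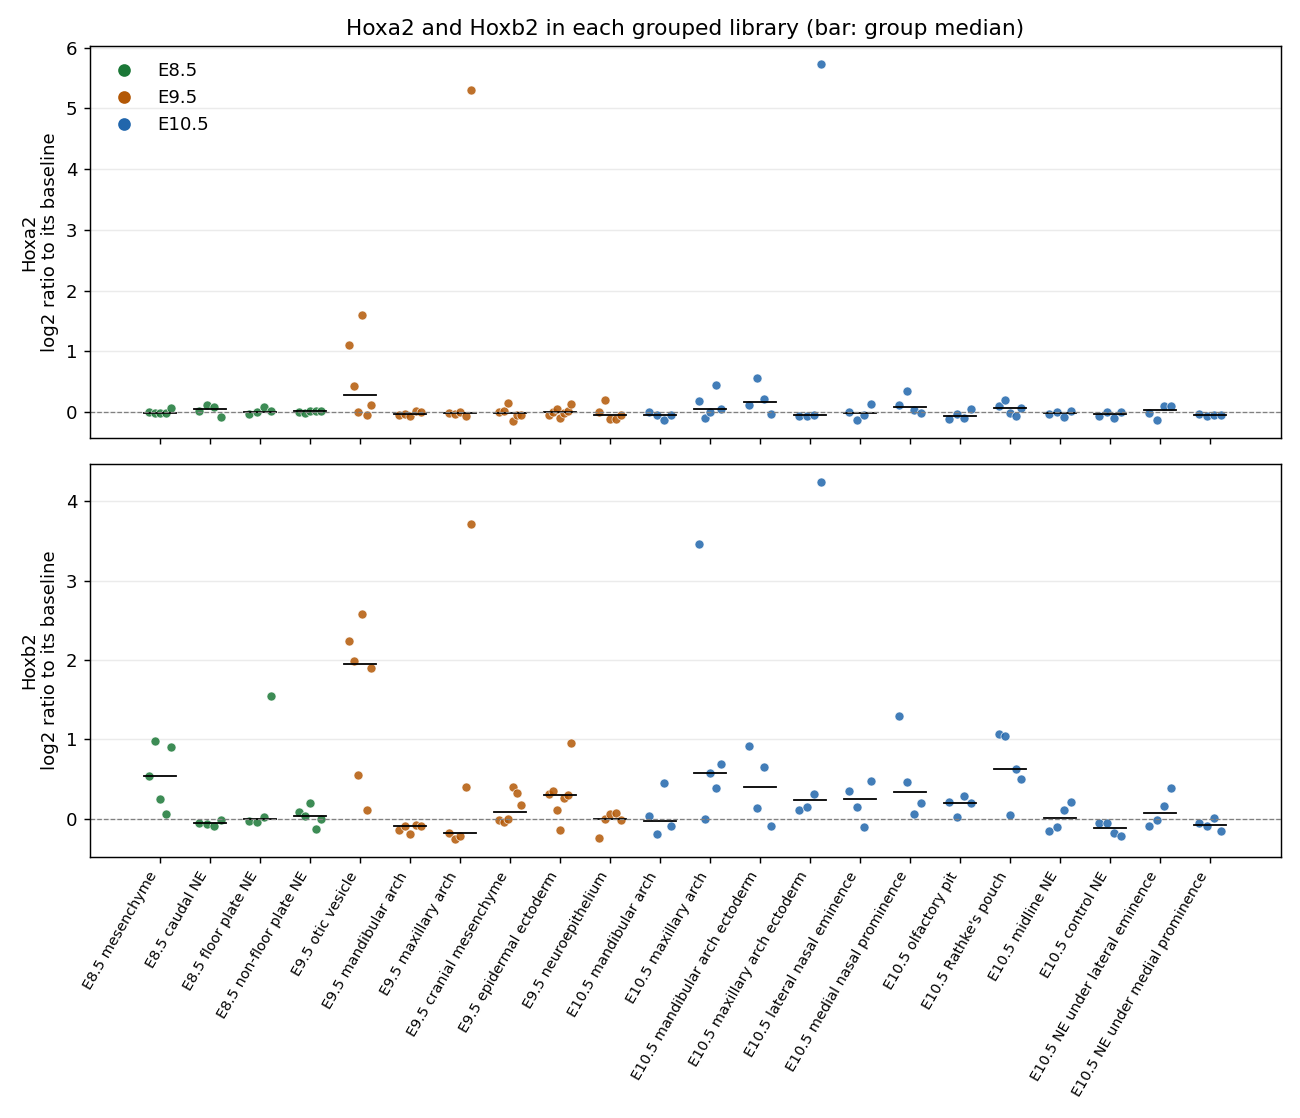
Log2 ratio of Hoxa2 and Hoxb2 in each library (points) of the 22 groups, with the group median as a bar. Hoxa2 reaches 5.30 in 1 E9.5 maxillary arch library and 5.74 in 1 E10.5 maxillary arch ectoderm library, and Hoxb2 is at 1.90 or higher in 4 of 6 otic vesicle libraries.

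The promoters of Hoxa2 and of its flat neighbour Hoxa3 are shown because the genes lie beside each other and had the largest and smallest SD of the Hoxa cluster. The 2 printed starts are nonetheless far apart by the coordinates below. Which annotated start the tissues used was not tested. The sequences are from RefSeq (GRCm38.p6, not the build of the files), 250 bases before to 50 bases after the annotated start, on the minus strand, chr6:52164782-52165081 for Hoxa2 and chr6:52213018-52213317 for Hoxa3. Capitals mark matches, on either strand, to TGATNNAT, a HOX-PBX motif, or TGACAG, a MEIS motif.
Hoxa2: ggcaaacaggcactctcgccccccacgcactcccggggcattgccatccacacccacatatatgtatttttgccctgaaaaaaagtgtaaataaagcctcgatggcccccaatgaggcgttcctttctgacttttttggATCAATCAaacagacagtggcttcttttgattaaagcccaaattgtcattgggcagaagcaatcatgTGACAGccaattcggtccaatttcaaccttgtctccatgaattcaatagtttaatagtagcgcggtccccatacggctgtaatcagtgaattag
Hoxa3: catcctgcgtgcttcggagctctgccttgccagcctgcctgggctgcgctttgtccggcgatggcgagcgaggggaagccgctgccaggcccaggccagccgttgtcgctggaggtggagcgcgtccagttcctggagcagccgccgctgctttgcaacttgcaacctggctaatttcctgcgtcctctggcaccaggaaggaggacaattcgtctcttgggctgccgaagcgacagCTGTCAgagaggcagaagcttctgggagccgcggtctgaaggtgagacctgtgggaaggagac
The Hoxa2 promoter holds a HOX-PBX match at -111 and a MEIS match at -44 from the start, and the Hoxa3 promoter holds a MEIS match at -13. The homeodomain motif TAATTA is in neither. Of all 32851 promoters of this length, 8.85% hold TGATNNAT, 19.2% hold TGACAG and 5.29% hold TAATTA. Of 23 promoters of 21 Hox genes, 3, 2 and 2 hold them. No overlap between the motifs was found in the 2 promoters printed. The GC content was 45.7% for Hoxa2 and 64% for Hoxa3.

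The libraries with high Hoxa2 or Hoxb2 also differed from their groups in other genes. In groups this small any library lies above or below all others in many genes by chance. That share of all genes was not counted, so the list counts given for single libraries are descriptions. In E9.5 maxillary arch library 5, 161 genes were more than 2-fold above every other library of the group, and Hoxa2 had the second largest gap of all 19938 genes and Hoxb2 the 12th. Its arch marker mean was 1.79, against 1.68 to 2.10 in the other 4 libraries. Meis1, a TALE cofactor, read 2.71, against -0.28 to 0.23, but it was the only one of the 8 TALE cofactors above all others. Pbx3, Pknox1 and Pknox2 were below all others, and the list mean of 0.37 lay within the range of the others, -0.44 to 1.10. Tcf15, a paraxial mesoderm factor, read 2.98, against -0.65 to 0.42, and Sox10, a crest and otic factor, read 2.97, against 0.07 to 0.84. Of the 12 otic markers, which include Sox10, 3 were above and 1 below all others, and their mean of 0.45 lay within the range of the others, -0.20 to 0.48. The paraxial mesoderm list as a whole averaged 0.36, against -0.04 to 0.11, with 2 of its 10 genes above all other libraries. The part of these genes in the Hoxa2 signal was not tested.

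In E10.5 maxillary arch ectoderm library 4, 1208 genes were more than 2-fold above the other 3 libraries. The Hoxa2 gap was again second of all genes, and that of Hoxb2 was 52nd. Of the 8 TALE cofactors, Meis1, Meis2, Meis3 and Pbx3 were above all others, with a list mean of 0.67, against -0.66 to -0.13, and Pbx4 was below. Of the 17 upstream regulators 3 were above and 8 below all others, with a mean of 0.34, against 0.20 to 0.26. Of the 13 hindbrain genes 1 was above and 7 were below, with a mean of 0.03, against 0.16 to 0.21. The arch markers averaged 0.88, against -0.09 to 0.37, and 5 of 10 were above all others. In E10.5 maxillary arch library 1, where Hoxb2 alone was high, 602 genes stood out, 6 of the 8 TALE cofactors were above all others (list mean 0.61, against -0.61 to 0.07), and 8 of the 10 arch markers were (2.02, against 0.53 to 0.94). Meis1 was above all other libraries of its group in each of the 3, with 2.71, 1.85 and 3.01. Its part in the Hox values was not tested.

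Hoxaas2, a long noncoding RNA annotated between Hoxa2 and Hoxa3, was high in some of the same libraries. It read 3.64 in E9.5 maxillary arch library 5, against -0.13 to 0.27 in the other 4. It read 0.95 in E10.5 maxillary arch ectoderm library 4, against -0.17 to 0.05 in the other 3. It read 1.64 in otic vesicle library 4, against -0.07 to 0.46 in the other 5. These are the 3 libraries in which Hoxa2 was highest. The other transcripts within the clusters were mostly flat: Mir10a ran from -0.28 to 0.16 and Mir10b from -0.30 to 0.15 over all libraries. Mir615 was over 1 in 9 libraries and Evx2, which flanks Hoxd, in 6. Their highest values, 1.85 and 1.54, were both in epidermal ectoderm library 7.

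At E8.5 the raised values lay in single libraries too. Floor plate library 4 read 2.51 for Hoxb5, against -0.31 to 0.13 in the other 3, and 2.27 for Hoxd8, against 0.00 to 0.09. It also read 1.55 for Hoxb2 and 1.02 for Hoxb6. E8.5 mesenchyme library 4 read 1.20 for Hoxb5, against -0.18 to 0.21 in the other 4. Hoxb5 and Hoxd8 are trunk Hox genes of the middle paralog groups. In floor plate library 4, 632 genes were more than 2-fold above the others, among them Hand1, Postn, Acta2 and Cryab. Its surface ectoderm markers averaged 1.05, against -0.24 to 0.02, with 7 of 10 above all others. Of the 17 upstream regulators of Hox genes 9 were above and 1 was below all others. Those above include Aldh1a2 with 2.60 and Cdx1 with 0.12, which is near the baseline. The share of all genes above all others was not counted here either. The part of the markers and regulators in the Hox values was not tested.

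In the otic vesicle Hoxb2 averaged 1.56 ± 0.99 (SD, n = 6), the highest of the 22 groups. Hoxa2 averaged 0.53 ± 0.67. None of the other 35 genes passed 2-fold in any otic library, and their highest otic value was 0.89, for Hoxa4 in library 3. Without libraries 3 and 5, which carried forebrain genes and low otic markers, Hoxb2 averaged 2.18 ± 0.30 and Hoxa2 0.81 ± 0.67 (SD, n = 4). Across the 6 libraries, the Hoxb2 values of the 4 with the highest otic markers were the 4 highest Hoxb2 values.

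**Figure D3:**
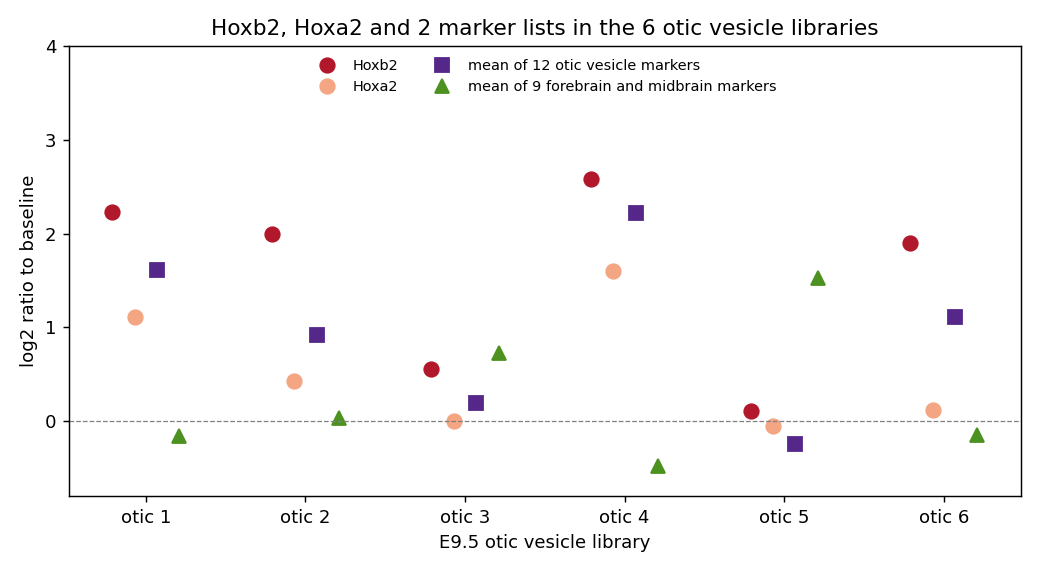
Log2 ratio (y axis) of Hoxb2 and Hoxa2 and the means of the 12 otic and the 9 forebrain and midbrain markers in the 6 otic vesicle libraries (x axis). Libraries 3 and 5 are low in Hoxb2 (0.55 and 0.11) and in the otic markers (0.19 and -0.25) and high in the forebrain and midbrain markers (0.73 and 1.53).

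Against epidermal ectoderm, the tissue from which the otic placode forms, no Hox gene was called by limma, beside 0.391% of all genes. At an unadjusted p under 0.05 there were 5 of 37, beside 11.1% of all genes. Hoxb2 had the largest difference, 1.26 ± 0.40 (SE), with 1.56 ± 0.99 in otic vesicle and 0.31 ± 0.33 in ectoderm (SD, n = 6 and 7) and a limma adjusted p of 0.165. Over 25 alternatives the adjusted p ran from 6.51e-05 to 0.896 and was under 0.05 in 3. One of these was the omission of otic libraries 3 and 5, where the difference was 1.87.

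Against E9.5 neural epithelium no Hox gene was called by limma, beside 0.828% of all genes. There were 6 of 37 at an unadjusted p under 0.05, beside 10.3% of all genes. Hoxb2 was higher by 1.58 ± 0.44 (SE) in the otic vesicle, with 1.56 ± 0.99 there and -0.02 ± 0.13 in neural epithelium (SD, n = 6 and 5), and its adjusted p was 0.0615. All 6 otic libraries lay above all 5 neural ones, which held for 1 Hox gene and for 1.13% of all genes. The adjusted p was under 0.05 in 8 of 22 alternatives, with a highest value of 0.823. Without otic libraries 3 and 5 the difference was 2.20.

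Against the first arch, mandibular and maxillary together, 4 Hox genes were called higher and 0 lower by limma, beside 2.54% of all genes called higher, 4.58% lower and 7.13% in either direction. There were 15 of 37 at an unadjusted p under 0.05, beside 26.4% of all genes. Hoxb2 was higher by 1.27 ± 0.38 (SE, adjusted p = 0.0255), with 1.56 ± 0.99 in otic vesicle and 0.29 ± 1.22 in the arches (SD, n = 6 and 10). Its adjusted p ran up to 0.37 over 28 alternatives and was under 0.05 in 20. Hoxb1, a gene of the fourth rhombomere, was higher by 0.45 ± 0.13 (adjusted p = 0.0278), Hoxd1 by 0.27 ± 0.08 (0.0277) and Hoxc12 by 0.30 ± 0.10 (0.0462). These 3 were called in 18, 17 and 13 of 27 alternatives, with highest adjusted p-values of 0.23, 0.256 and 0.291. None of the 4 calls was kept with only the compared groups in the fit. Without otic libraries 3 and 5 Hoxb2 was the only gene called of the 37. The median difference of the 37 genes was 0.17, beside -0.05 for all genes.

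Leaving out single libraries moved the count of 4 widely. It was 0 without otic library 2, maxillary library 1 or maxillary library 2, and 1 without otic library 3 or mandibular library 2. It was 2 without otic library 6 or maxillary library 3. It was 7 without maxillary library 5, 10 without maxillary library 4 and 14 without otic library 4.

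An exact two-sided permutation test over libraries, added after these values were seen, was run for Hoxa2 and Hoxb2 in the 3 otic comparisons, with adjustment over the 6 tests. For Hoxb2 it gave exact p = 0.0175 against ectoderm (adjusted 0.0524), 0.00433 against neural epithelium (adjusted 0.026), the smallest p this design allows, and 0.0589 against the arches (adjusted 0.0884). For Hoxa2 it gave exact p = 0.0524, 0.0823 and 0.755 in the same order (adjusted 0.0884, 0.0987 and 0.755). Both genes were picked from the 37 after their values were seen, and neither these p-values nor their adjustment takes that choice into account, so no call is rested on them. Over all genes limma did not call Hoxb2 against ectoderm or neural epithelium. Hoxb2 was above every library of the other tissue in 4 of 6 otic libraries against ectoderm, 6 of 6 against neural epithelium and 0 of 6 against the arches, where maxillary library 5 was the highest.

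Among the genes upstream of Hox, Gbx2, a factor of the anterior hindbrain and the otic vesicle, was higher in the otic vesicle than in ectoderm (1.62), neural epithelium (1.44) and the arches (1.16), and it passed the test in each. The 3 comparisons share the otic libraries. Against the arches 3 of the 17 upstream regulators rose (Gbx2, Fgf3 and Cyp26b1) and 1 fell (Rarg). Of the 8 TALE cofactors 3 fell: Meis2 by 2.48 ± 0.56 (SE, adjusted p = 0.00257), Pbx3 by 1.29 and Pknox2 by 0.95. Of the 13 hindbrain genes 4 rose (Fgf3, Gbx2, Irx3 and Phox2a). Of all genes 2.54% rose and 4.58% fell in this comparison. The 12 otic markers themselves gave 8 higher, among them Oc90 (1.07) and Sox10 (1.92). Of the 10 arch mesenchyme markers 6 were lower, of the 9 endothelium and blood markers 6 were lower, and 5 of 10 surface ectoderm and 5 of 10 neural epithelium markers were higher. The part of these markers in the Hox values was not tested.

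In the caudal neural epithelium of E8.5 all Hox values lay between -0.45 and 0.11 in all 4 libraries. Against non-floor plate neural epithelium no Hox gene was called by limma, beside 1.41% of all genes, and none had an unadjusted p under 0.05, beside 7.4% of all genes. The largest difference was that of Hoxb1, -0.20 ± 0.17 (SE, adjusted p = 1.00, and at least 0.185 over 18 alternatives), with -0.19 ± 0.02 in caudal and 0.01 ± 0.09 in non-floor plate tissue (SD, n = 4 and 5). The libraries did not overlap for 3 of the 37 genes, Hoxb1, Hoxb3 and Hoxc8, beside 5.71% of all genes. The median difference was -0.06, beside 0.02 for all genes. The paralog groups 1 to 4, which reach furthest forward in the embryo, had caudal means from -0.19 for Hoxb1 to 0.03 for Hoxa2 and Hoxa3.

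Against floor plate neural epithelium no Hox gene was called by limma, beside 1.8% of all genes, and 2 had an unadjusted p under 0.05, Hoxb5 and Hoxd8, beside 10% of all genes. Hoxb5 differed by -0.72 ± 0.23 (SE, adjusted p = 0.0952), with -0.13 ± 0.06 in caudal and 0.59 ± 1.29 in floor plate tissue (SD, n = 4 each). Without floor plate library 4 its difference was -0.08. Over 17 alternatives its adjusted p ran from 0.006 to 0.984. Hoxd8 differed by -0.59 ± 0.19 (SE, adjusted p = 0.0934), with 0.00 ± 0.04 in caudal and 0.59 ± 1.12 in floor plate tissue. Hoxb5 and Hoxd8 were both called when floor plate library 1, 2 or 3 was left out, and with array weights. The libraries did not overlap for 10 of the 37 genes, beside 12.3% of all genes.

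The same caudal libraries carried strong values of genes that act at the boundary of midbrain and hindbrain. Gbx2 read 3.23, 3.88, 0.99 and 2.15 in the 4 caudal libraries, against -0.54 to 0.13 in non-floor plate tissue, a difference of 2.87 ± 0.38 (SE, limma adjusted p = 6.17e-08). En1 differed by 3.08 ± 0.23 (adjusted p = 5.47e-18) and Wnt1 by 3.40 ± 0.44 (4.43e-08). These were the 2 that rose of the 9 forebrain and midbrain genes, while 5 fell: Fezf1 (-5.80), Hesx1 (-5.53), Lhx2 (-3.31), Six3 (-2.90) and Otx2 (-2.10). The median difference of that list was -2.10. Otx2, which marks the forebrain and midbrain, read 0.20, 2.82, 4.10 and 0.22, so that caudal libraries 2 and 3 were high and 1 and 4 were near the baseline. Aldh1a2, which makes the retinoic acid that activates Hox genes, read 0.04, 0.05, 1.54 and 0.00, against 3.60 to 5.22, a difference of -4.05 ± 0.21 (adjusted p = 2.33e-28).

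Of the 17 upstream regulators 3 rose in caudal tissue (Gbx2, Fgf3 and Fgf8) and 1 fell (Aldh1a2). Fgf3 differed by 1.68 ± 0.34 and Fgf8 by 1.85 ± 0.51 (SE). Egr2, a factor of hindbrain segments that drives Hoxa2 and Hoxb2, stayed between -0.27 and 0.00 in the caudal libraries. Of 13 hindbrain genes 4 rose, among them Irx3 by 2.95 ± 0.49. Of 11 genes of posterior axis progenitors 2 rose, Fgf17 by 3.43 ± 0.84 and Sp5 by 2.21 ± 0.48, while the Cdx genes of that list did not pass. Of 8 TALE cofactors 1 rose, Pknox2, by 1.83 ± 0.30. None of the 16 Polycomb, 11 Trithorax and demethylase, and 15 cluster-flanking genes passed. Of all genes 1.41% passed in this comparison, in either direction.

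**Figure D4:**
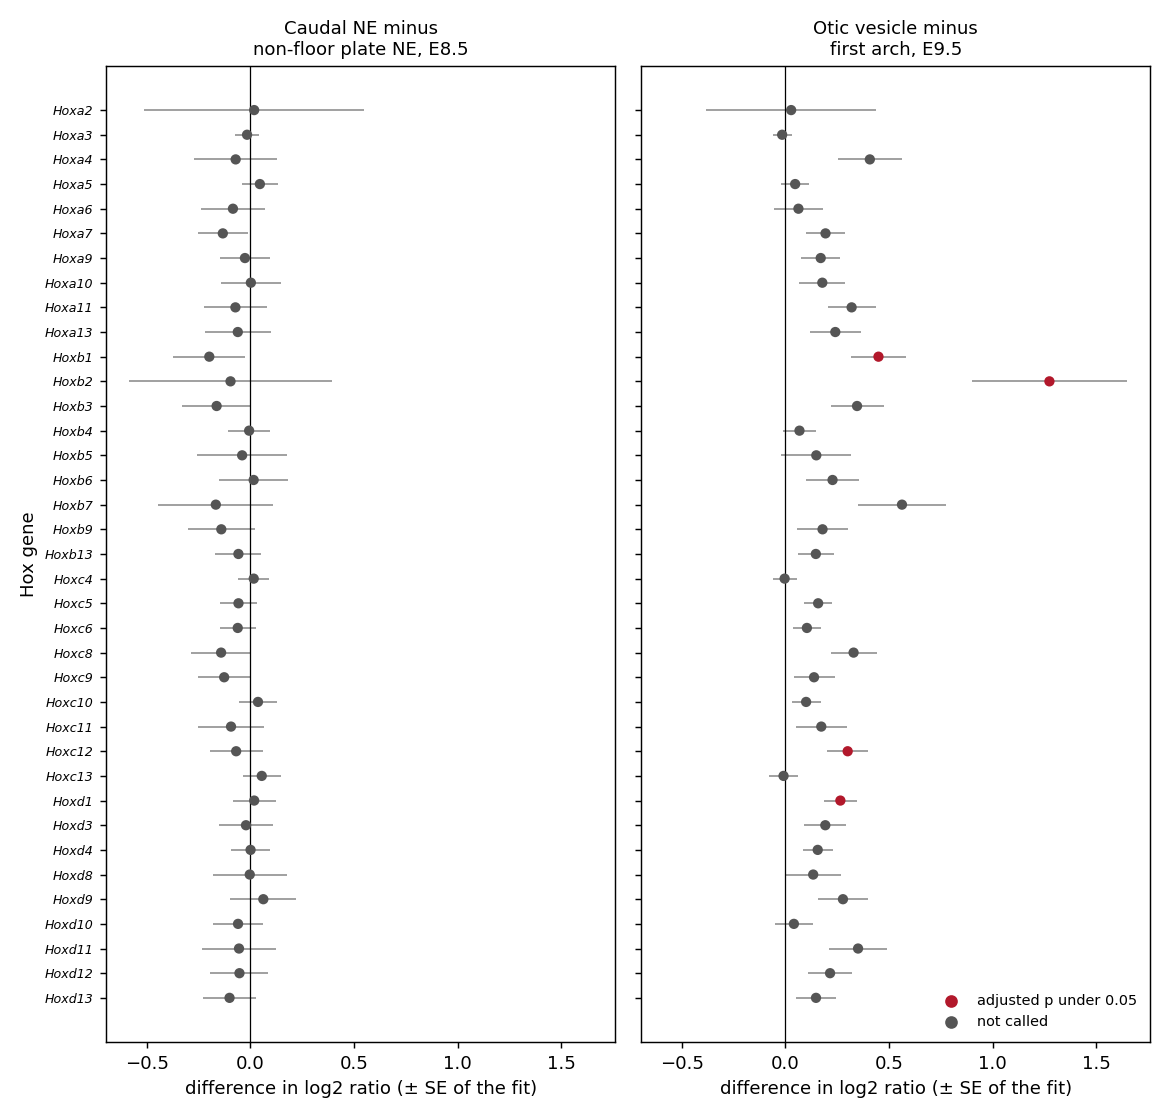
Difference in log2 ratio of each of the 37 Hox genes (points, with the SE of the fit as lines) for E8.5 caudal minus non-floor plate tissue (left) and otic vesicle minus first arch at E9.5 (right). No gene is called on the left, where the median is -0.06, and 4 are called on the right (red), where the median is 0.17.

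E8.5 mesenchyme was compared with the 13 neural epithelium libraries of its stage. No Hox gene was called by limma, beside 2.4% of all genes, and none had an unadjusted p under 0.05, beside 8.13%. Hoxb2 had the largest difference, 0.43 ± 0.38 (SE, adjusted p = 1.00, and at least 0.15 over 28 alternatives). It read 0.54, 0.98, 0.25, 0.06 and 0.90 in the mesenchyme libraries, a mean of 0.55 ± 0.40 (SD, n = 5), against 0.12 ± 0.44 in neural epithelium (n = 13). Of the 17 upstream regulators the retinoic acid degrading enzymes Cyp26a1 and Cyp26c1 rose, by 2.33 and 1.64, and Aldh1a2 and Fgf3 fell, by 1.76 and 1.16.

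In the first arch of E9.5 Hox genes other than Hoxa2 and Hoxb2 lay between -0.90 and 0.23 in mandibular and between -0.65 and 0.68 in maxillary libraries. Against cranial mesenchyme no Hox gene was called by limma, beside 0.933% of all genes, and none had an unadjusted p under 0.05, beside 13.5%. The largest difference was that of Hoxa2, 0.52 ± 0.41 (SE, adjusted p = 0.606, and at least 0.384 over 27 alternatives). Without maxillary library 5 it was -0.02, so its sign rested on that library. The arches were set apart from cranial mesenchyme by other genes: Barx1 was higher by 4.84, Dlx5 by 4.26 and Hand2 by 1.42, Alx1 was lower (-3.37), and Meis2 was the only TALE cofactor of 8 to rise, by 3.30 ± 0.56 (SE).

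Between the mandibular and maxillary arch of E9.5 no Hox gene was called by limma, beside 0.0702% of all genes, and 1 had an unadjusted p under 0.05, Hoxa2, beside 3.47%. Hoxa2 differed by -1.07 ± 0.50 (SE, adjusted p = 1.00, and at least 0.664 over 21 alternatives), with -0.03 ± 0.03 in mandibular and 1.04 ± 2.38 in maxillary libraries (SD, n = 5 each). Without maxillary library 5 the difference was 8.59e-05. Of the lists, the arch markers gave 1 called gene, Hand2, which was higher in the mandibular arch by 2.49. Hand2 is known for patterning the lower jaw.

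At E10.5 the 9 first arch libraries were set against the 8 libraries of the lateral and medial nasal prominences. The 9 include maxillary libraries 1 to 4, whose surface ectoderm markers were high. No Hox gene was called by limma, beside 0.0953% of all genes. Hoxa11 and Hoxb4, 2 of the 37, had an unadjusted p under 0.05, beside 9.25% of all genes. Hoxb7 had the largest difference, -0.34 ± 0.20 (SE, adjusted p = 0.633, and at least 0.0514 over 27 alternatives). Of the other lists 1 of 11 Trithorax and demethylase genes fell, Kmt2a, by 0.38 ± 0.08 (SE, adjusted p = 0.0291), a histone methyltransferase that keeps Hox genes active. Of the 8 pharyngeal endoderm markers 1 rose, Pax9, by 0.84 ± 0.14 (SE, adjusted p = 0.000214).

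Between the stages 6 Hox genes were called higher and 0 lower in the arches of E10.5 than of E9.5, beside 7.63% of all genes called higher, 20.7% lower and 28.3% in either direction. There were 11 of 37 at an unadjusted p under 0.05, beside 41% of all genes. Hoxa4 was higher by 0.45 ± 0.14 (SE, adjusted p = 0.0119), with 0.43 ± 0.31 at E10.5 and -0.02 ± 0.35 at E9.5 (SD, n = 9 and 10). Hoxb7 was higher by 0.57 ± 0.19 (0.0211), Hoxa10 by 0.29 ± 0.10 (0.0216), Hoxa13 by 0.31 ± 0.11 (0.0273), Hoxb1 by 0.33 ± 0.12 (0.0306) and Hoxd1 by 0.18 ± 0.07 (0.0454). No difference reached 2-fold, and the libraries of the stages overlapped for each of the 6. Their adjusted p-values ran up to 0.155 for Hoxa4 and up to 0.425 for the other 5 over their alternatives. None of the 37 was called when the 11 arrays of wide spread were left out. The count was 1 without E10.5 mandibular library 1, 2 without E9.5 maxillary library 2 or E10.5 maxillary library 5, and 3 without E9.5 mandibular library 2 or E10.5 mandibular library 3.

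Over the same stages, where 20.7% of all genes fell, 3 of the 8 TALE cofactors fell, Meis2 by 3.09 ± 0.50, Pbx3 by 1.38 ± 0.37 and Pknox2 by 0.81 ± 0.21 (SE). Of the 16 Polycomb genes, which keep Hox genes silent, 7 fell, among them Rnf2 by 1.32, Suz12 by 0.94 and Jarid2 by 0.49. Of the 11 Trithorax and demethylase genes 4 fell, among them Wdr5 by 2.12 and Men1 by 1.96. The arch markers gave 6 lower and 1 higher of 10, and the surface ectoderm markers 3 higher of 10, among them Epcam by 1.98. Of the 9 endothelium and blood markers 6 were lower. The part of these markers in the Hox values was not tested.

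The paralog groups 1 to 4 are the ones known from the hindbrain and the arches. Their means over the caudal, otic and first arch groups stayed at or below 0.53 but for Hoxa2 and Hoxb2. Hoxa4 had -0.10 in caudal, 0.39 in otic, -0.17 in E9.5 mandibular, 0.13 in E9.5 maxillary, 0.33 in E10.5 mandibular and 0.53 in E10.5 maxillary libraries. Hoxb1 had -0.19, 0.24, -0.25, -0.18, 0.08 and 0.16 in the same order. Hoxb3 had -0.13, 0.18, -0.21, -0.11, -0.07 and 0.25, and Hoxd3 -0.05, 0.19, -0.07, 0.07, 0.14 and 0.21. In each of these 4 genes the E9.5 mandibular mean was the lowest, and the otic or the E10.5 maxillary mean was the highest. Hoxd1 ran from -0.22 to 0.14, Hoxd4 from -0.14 to 0.04, Hoxc4 from -0.02 to 0.13, Hoxb4 from -0.06 to 0.04 and Hoxa3 from -0.05 to 0.03 over these 6 group means.

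A test of any variation over the 22 groups passed for 28 of the 37 genes, beside 59% of all genes. Those that did not pass were Hoxa2, Hoxa3, Hoxb4, Hoxb5, Hoxb9, Hoxc4, Hoxc11, Hoxc13 and Hoxd8. Hoxa2 and Hoxd8 thus missed the threshold with single libraries far above the rest. For 19 of the 28 the highest group was Rathke's pouch, the source of the anterior pituitary, beside 9.95% of the 11766 genes that passed. For 14 the lowest was the E9.5 mandibular arch, beside 8.83%, and for 5 the caudal neural epithelium, beside 9.74%. Without the 11 arrays of wide spread these counts were 13, 10 and 5 of the same 28, beside 7.09%, 7.55% and 9.03%. The highest of the 22 group means was at least 2-fold over baseline for 3 of the 37, Hoxa2, Hoxb2 and Hoxb7, beside 24.8% of all genes.

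The 19 with their highest mean in Rathke's pouch were Hoxa4 (0.85), Hoxa5, Hoxa6, Hoxa7, Hoxa9, Hoxa11, Hoxa13 (0.72), Hoxb1, Hoxb6, Hoxb7 (1.13), Hoxc8 (0.62), Hoxc10, Hoxc12, Hoxd1, Hoxd3, Hoxd9, Hoxd11 (0.78), Hoxd12 and Hoxd13. Hoxa10 and Hoxc6 were highest in the medial nasal prominence, Hoxb13 and Hoxc9 in epidermal ectoderm, Hoxb2 in the otic vesicle, Hoxb3 in maxillary arch ectoderm, Hoxc5 in the E10.5 maxillary arch, Hoxd4 in the olfactory pit and Hoxd10 in mandibular arch ectoderm. The 19 include genes of all 4 clusters and of low and high paralog number. The lowest means of the 28 ranged from -0.34 for Hoxb7 in caudal tissue to -0.07 for Hoxa5 in the control neural epithelium.

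Within Rathke's pouch the 5 libraries differed. Hoxb7 read 1.91, 2.04, 0.00, 1.15 and 0.56, Hoxa4 1.13, 1.54, 0.43, 0.85 and 0.31, Hoxa13 0.96, 1.66, 0.15, 0.72 and 0.11, and Hoxc8 1.02, 0.79, -0.01, 1.04 and 0.25. Libraries 1, 2 and 4 were high in each of these genes and libraries 3 and 5 low. The SDs of the 5 arrays over all genes were 0.840, 1.11, 0.613, 0.911 and 0.718, the 3 wider arrays being libraries 1, 2 and 4. The number of Hox values over 2-fold was 6, 8, 0, 3 and 0.

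Across the atlas the Hox means also ran higher in the wide arrays. In the 11 arrays of wide spread the mean of the 37 Hox genes ran from 0.11 to 0.67 (median 0.26), and in the other 91 from -0.23 to 0.55 (median 0.02). Of the Hox values, 20 of 407 were over 2-fold in the wide arrays (4.91%) and 31 of 3367 in the others (0.921%). Over all genes the shares ran the other way, 2.5% in the wide arrays and 6.26% in the others. The 20 Hox values over 2-fold lay in only some of the wide arrays. Rathke's pouch libraries 2 and 4 held 8 and 3 of them, and epidermal ectoderm library 7 held 6. Medial nasal prominence library 2 held 2 and E10.5 maxillary arch library 4 held 1, and the other wide arrays held none. Without the wide arrays 21 of the 37 genes still passed the test of variation over groups, and 6 did when each array's 5th percentile entered the fit. The part of array spread in the small shifts was not tested further. The 5 Hoxa2 and Hoxb2 values over 8-fold came from 3 arrays outside those 11, with SDs of 0.594 for E9.5 maxillary library 5, 0.645 for E10.5 maxillary ectoderm library 4 and 0.562 for E10.5 maxillary library 1. Of their 15 values over 2-fold 1 came from a wide array, that of Hoxb2 in Rathke's pouch library 2 (1.04).

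**Figure D5:**
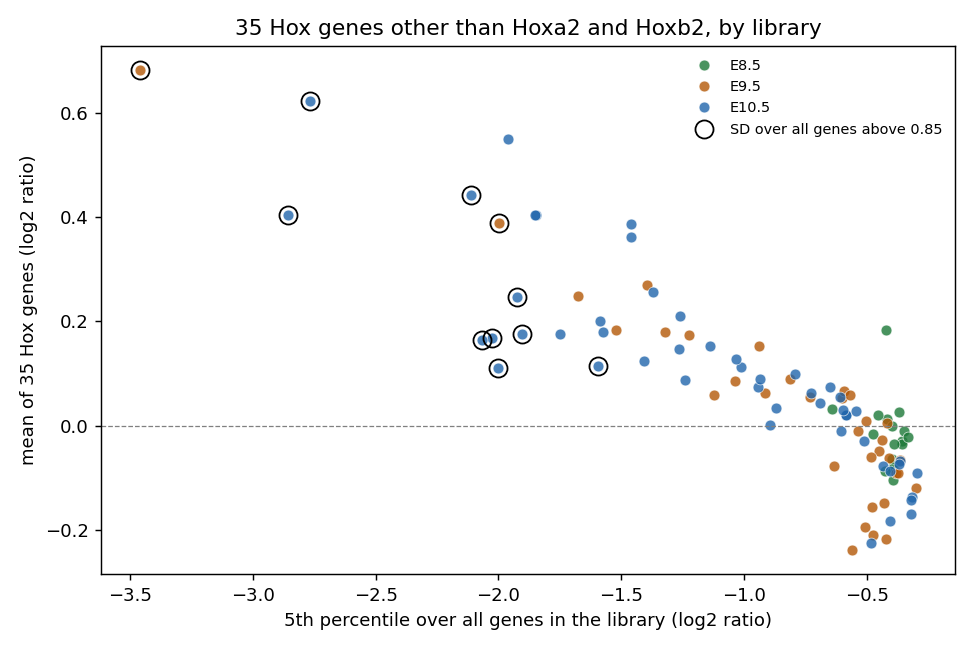
Mean log2 ratio of the 35 Hox genes other than Hoxa2 and Hoxb2 in each library (points, coloured by stage) against the 5th percentile of all genes in that library (log2 ratio), with the 11 arrays of an SD over 0.85 circled. Libraries whose 5th percentile is low have the higher Hox means, and all 11 circled ones lie above 0.

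Hoxa4, Hoxb7, Hoxa13 and Hoxc8 had the strongest variation over groups. In caudal libraries Hoxb7 read -0.37, -0.39, -0.45 and -0.16, in otic libraries -0.18 to 0.82 with a median of 0.35, and in E9.5 mandibular libraries -0.90, -0.04, 0.02, -0.44 and -0.14. In E9.5 maxillary libraries it read -0.43, -0.65, -0.33, 0.68 and 0.01, in E10.5 mandibular libraries 0.54, -0.10, 0.44 and -0.11, and in E10.5 maxillary libraries 0.11, 0.51, 0.01, 0.28 and 1.57. The caudal values were all below 0, the E10.5 maxillary values were all above 0, and the other groups had values on both sides. Hoxa4 ran from -0.14 to -0.04 in caudal, from -0.09 to 0.89 in otic, from -0.46 to 0.66 in E9.5 arch and from 0.13 to 1.09 in E10.5 arch libraries. Hoxa13 ran from -0.17 to -0.03 in caudal, -0.08 to 0.36 in otic, -0.18 to 0.10 in E9.5 arch and -0.22 to 0.79 in E10.5 arch libraries, and Hoxc8 from -0.17 to -0.09, -0.23 to 0.66, -0.39 to 0.22 and -0.37 to 0.63 in the same tissues.

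The genes whose 22 group means were most like those of each, by Pearson's r over these means, were as follows. For Hoxa4 they were 9130213A22Rik, Hrk and Kctd12 (r = 0.97 each). For Hoxb7 they were 5930403L14Rik, Mcidas and Sox1 (r = 0.98 each). For Hoxa13 they were Rasef, Hcn4 and 4930599N23Rik (r = 0.93 each), and for Hoxc8 Grk1 (0.92), Map3k21 (0.89) and L1td1 (0.89). No Hox gene was among them. The means share their libraries and the spread of those arrays, so these values are descriptions.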

How the data were processed

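Laser-captured tissue of 103 samples was hybridised to Affymetrix whole-transcript arrays, and the authors deposited 1 ratio per probe set and sample. Per the submitters' processing notes RMA was used with mm9, and no version is given in the sources used here. The deposited ratio is linear, and its median over 21 samples was 1 for each probe set. Of 35557 probe sets 28856 held values, and 21789 of these named 1 gene. The log2 of the deposited ratio was analysed for 19938 genes, and of several probe sets of a gene the one with the highest mean was kept.

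limma 3.58.1 (R 4.3.3) was fitted to the samples of 22 groups, with 10 contrasts, a moderated F test and Benjamini-Hochberg adjustment over all genes. The steps were tested on simulated data with independent normal noise and, for each gene, the same SD in all groups. That setting holds no single outlying libraries or unequal group spreads, so it does not bear on calls that rest on them. Exact permutation tests used scipy 1.17.1. The number of arrays limits the precision. One E9.5 sample whose labels disagree on its tissue was left out, and 4 E10.5 neural epithelium samples titled lateral but otherwise labelled medial were grouped as medial. The design had assumed log2 levels, so the planned removal of dim genes was left out, since the ratios carry no level.

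The Hox genes and all gene lists were chosen with earlier results of these data known. Every Hox gene called in a comparison was named, or the one with the largest difference where none was. Of the 4 genes with the highest F, library values are given in full for Hoxb7 and as ranges for the others, for length. Hoxa2, Hoxb2, Hoxb5 and Hoxd8 were singled out after their values were seen.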

Additional observations from a re-analysis of the deposited data

Results flagged for a closer look

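Libraries were examined for a wide gap to the rest of their group in Hoxa2 and Hoxb2 (all groups), Hoxb5 and Hoxd8 (E8.5) and Hoxa4, Hoxb7, Hoxa13 and Hoxc8 (caudal, otic and first arch groups), and 12 of these 76 combinations of gene and group had one. All 12 are of Hoxa2, Hoxb2, Hoxb5 or Hoxd8, which were singled out after their values were seen, so the 12 cannot be set against the rate of about 1 in 20 that chance gives. Over all 37 genes and 22 groups 61 of 814 combinations had such a gap. Hoxa2 read 5.74 in E10.5 maxillary arch ectoderm library 4 (others -0.06 to -0.04), 5.30 in E9.5 maxillary arch library 5 (others -0.06 to 0.00) and 0.0706 in E8.5 mesenchyme library 5 (others -0.02 to 0.00). Hoxb2 read 4.24 in E10.5 maxillary arch ectoderm library 4 (others 0.11 to 0.32), 3.71 in E9.5 maxillary arch library 5 (others -0.25 to 0.40) and 3.47 in E10.5 maxillary arch library 1 (others 0.00 to 0.69). It read 1.55 in floor plate library 4 (others -0.04 to 0.02) and -0.24 in E9.5 neural epithelium library 1 (others -0.01 to 0.08).

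Hoxb5 read 2.51 in floor plate library 4 (others -0.31 to 0.13), 1.20 in E8.5 mesenchyme library 4 (others -0.18 to 0.21) and -0.0414 in caudal neural epithelium library 4 (others -0.17 to -0.15). Hoxd8 read 2.27 in floor plate library 4 (others 0.00 to 0.09). The values of 0.0706, -0.24 and -0.0414 lie close to the baseline, and their groups have a narrow range.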

How the results depend on the processing

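Of the results for single genes, 3443 kept direction and side of the threshold, 147 lost their call, 15 gained one and 4 reversed. Hoxa2 reversed to -0.0169 between the first arch and cranial mesenchyme and to 8.59e-05 between the mandibular and maxillary arch, both without E9.5 maxillary replicate 5 and with 4 libraries left out together (floor plate 4, E9.5 maxillary arch 5, E10.5 maxillary arch 1 and E10.5 maxillary arch ectoderm 4), an alternative chosen after seeing the data. With array weights the count of called Hox genes was 2 for caudal against floor plate, 1 for otic against ectoderm, 1 for otic against neural epithelium, 13 for otic against arch, 3 for arch against cranial mesenchyme and 2 for E10.5 arch against nasal tissue. Quantile normalization gave 1 for otic against neural epithelium. In the genes of larger SD the counts were 1 for otic against neural epithelium, 1 for otic against arch, 2 for E10.5 against E9.5 and 3 over the 22 groups, where fewer genes were tested.

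With only the compared groups in the fit, and equally with the replicate number as a block, the counts were 0 for otic against arch and 1 for E10.5 against E9.5. Same-numbered samples did not deviate together in every pair in any of the 10 comparisons, so the main fit did not pair them. Some pairs did: for the first arch and cranial mesenchyme the correlation of their deviations passed 0.1 in 8 of 10 pairs, with a highest value of 0.686. Whether such pairs share an embryo or a batch was not tested. Without otic libraries 3 and 5 each otic comparison gave 1. Without the 11 wide arrays the counts were 1 for otic against neural epithelium, 1 for otic against arch and 0 for E10.5 against E9.5. With the 4 libraries left out they were 2 for otic against ectoderm, 2 for otic against neural epithelium, 7 for otic against arch and 11 for E10.5 against E9.5. When each array's 5th percentile entered the fit, also added after seeing the data, they were 2 for otic against arch, 0 for E10.5 against E9.5 and 6 over the 22 groups. Leaving out 1 library at a time gave 0 to 2 for caudal against floor plate, 0 to 1 for otic against neural epithelium, 0 to 14 for otic against arch, 1 to 9 for E10.5 against E9.5 and 26 to 30 over the 22 groups. The same omissions gave Hoxa2 differences of -0.0169 to 0.653 between the first arch and cranial mesenchyme and of -1.34 to 8.59e-05 between the mandibular and maxillary arch. The causes were not tested.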

Other observations

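One E9.5 sample is titled mandibular arch and labelled epidermal ectoderm, and it belongs to no comparison. Its Hox values ran from -0.26 to 0.22, with a median of -0.05 and Hoxd10 the highest. Hoxa2 read 0.09 and Hoxb2 -0.13.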
